A study of Homo sapiens with 24 samples.

Results

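The genes described here are 10 regulators of the canonical and noncanonical NF-kB pathways, NFKB1, NFKB2, RELA, RELB, MAP3K14, TRAF2, TRAF3, NFKBIA, TNFAIP3 and BIRC3. They were taken by name from a gene count table of 58735 genes, in which each name belonged to 1 Ensembl gene, and all 10 passed the filter on low counts in both cell lines. The table holds 24 RNA-seq libraries from OE33 and SK-GT-4, which are established human cell lines of esophageal adenocarcinoma. From each line the study used a control clone carrying Cas9 with no guide against CGAS (labelled cGAS WT and called Cas9 here) and a clone in which CGAS was disrupted with CRISPR-Cas9 (cGAS KO). Each clone received the solvent DMSO or the MPS1 inhibitor reversine (MPS1i) at 500 nM for 48 h, which gives 8 groups of 3 libraries, numbered by batch 1 to 3. All groups therefore carry Cas9. The study grew these lines from single cells and the labels name no clone, so clone and genotype cannot be told apart. Differences between the 3 batches, which the study calls biological replicates, were taken out by a batch term in the main fits. The p-values of those fits measure the spread between libraries that is left, and not the spread between clones.

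NF-kB transcription factors are pairs of Rel proteins. In the canonical route the inhibitor encoded by NFKBIA is degraded after IKK activation, which frees dimers of RELA with the p50 product of NFKB1. In the noncanonical route the kinase NIK, encoded by MAP3K14, accumulates when the complex of TRAF2, TRAF3 and the ubiquitin ligases of the BIRC2 and BIRC3 genes stops marking it for destruction, and the NFKB2 protein is then processed to p52, the partner of RELB. MPS1 inhibition makes cells missegregate chromosomes, and cGAS, a sensor of cytosolic DNA, is a reported link from the resulting micronuclei to these pathways. NFKB2, RELB, NFKBIA, TNFAIP3 and BIRC3 are textbook NF-kB target genes, so their transcripts are at once regulators and readouts, whereas protein level, processing and nuclear location are not measured by RNA-seq.

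The libraries held between 15561268 and 25284177 counts. CGAS was at 29.5 to 41.3 CPM (counts scaled to the library's total after TMM normalisation, edgeR's correction for library composition) in the Cas9 libraries of OE33 and at 2.32 to 2.74 CPM in 5 of the 6 cGAS KO libraries, but replicate 2 of OE33 cGAS KO in DMSO held 15.4 CPM. In SK-GT-4 the ranges were 15.2 to 26.1 CPM in Cas9 and 2.24 to 5.81 CPM in cGAS KO. In SK-GT-4, replicate 2 of Cas9 in MPS1i and replicate 1 of cGAS KO in DMSO stood apart: ribosomal protein genes took 18.8% and 18.0% of their counts against 5.93% to 11.3% in the other SK-GT-4 libraries. Against the mean of their own group, their long genes were low relative to their short genes, by 0.86 and 1.19 on the log2 scale. Replicate 2 of cGAS KO in DMSO was at 0.91 in the other direction. Its median deviation from its other replicates over genes was 0.58, against 0.56 and 0.83 in the libraries that stood apart. The 7 epithelial markers summed to 3666 to 24090 CPM in every library and the 5 leukocyte markers to 2.17 to 34.5 CPM, with MS4A1 at 0 throughout. The 6 fibroblast and endothelial markers summed to 0.529 to 85.9 CPM.

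The promoters of the members are shown because several of these genes are known to be controlled by NF-kB itself. RefSeq windows on GRCh38.p14 were found for 9 of the 10 members (RELB was not among them), 13 windows in all, and the 250 bases before each start were searched on both strands for GGGNNTTTCC, a form of the kappa B element. Of the 9 members with a window, 6 had at least 1 match. By window, 7 of the 13 had a match, against 608 of all 35116 windows (1.73%). In the following lines the match is in capitals. On NFKB2, NFKB1, TRAF3 and TNFAIP3 30 bases around the match are given; the NFKB2, NFKB1 and TNFAIP3 stretches reach into the gene's span in the count table because RefSeq and the table place the starts differently. For NFKBIA and BIRC3 the whole searched stretch outside that span is given. All run 5′ to 3′ on the strand of the gene.
NFKB2 (chr10:102395674-102395703, plus strand): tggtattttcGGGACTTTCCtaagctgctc
NFKB2, upstream start (chr10:102394490-102394519, plus strand): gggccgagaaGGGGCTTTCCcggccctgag
NFKB1 (chr4:102501300-102501329, plus strand): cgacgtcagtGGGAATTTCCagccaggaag
TRAF3 (chr14:102777406-102777435, plus strand): cgggcgcgccGGGGATTTCCagcgcgcgag
TNFAIP3 (chr6:137867188-137867217, plus strand): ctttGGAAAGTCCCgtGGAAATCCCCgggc
NFKBIA (chr14:35404750-35404999, minus strand): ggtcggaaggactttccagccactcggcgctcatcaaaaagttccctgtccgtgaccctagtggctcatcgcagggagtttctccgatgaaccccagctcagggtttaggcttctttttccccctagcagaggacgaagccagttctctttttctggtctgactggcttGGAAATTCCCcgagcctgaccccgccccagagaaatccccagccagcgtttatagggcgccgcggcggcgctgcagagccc
BIRC3 (chr11:102317234-102317449, plus strand): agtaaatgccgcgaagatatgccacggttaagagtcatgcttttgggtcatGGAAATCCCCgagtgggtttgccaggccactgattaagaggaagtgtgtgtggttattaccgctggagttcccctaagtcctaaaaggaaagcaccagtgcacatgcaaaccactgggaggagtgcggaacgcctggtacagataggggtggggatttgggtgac

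In TNFAIP3, NFKBIA and BIRC3 the matches lay on the opposite strand. NFKB1 and NFKBIA shared the form GGGAATTTCC, found in 0.142% of all windows, NFKB2 and TNFAIP3 shared GGGACTTTCC, found in 0.179%, and TRAF3, TNFAIP3 and BIRC3 shared GGGGATTTCC, found in 0.108%. The windows of RELA, MAP3K14 and TRAF2 had no match to these letters. A match is a description of the sequence and was not tested for binding.

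Among the subunits, RELA (ENSG00000173039, chr11:65653596-65663094), the main activating subunit of the canonical route, was the most abundant member per length of gene in OE33. It stood at a lowest, median and highest value of 226, 248 and 286 CPM over the 12 OE33 libraries and 34.4, 83.6 and 94.3 CPM over the 12 SK-GT-4 libraries. Its partner NFKB1 (ENSG00000109320, chr4:102501329-102617302) ran from 51.4 through 70.5 to 90.4 CPM in OE33 and from 16.7 through 41.9 to 58.3 CPM in SK-GT-4. RELA did not overlap between the lines, whereas the ranges of NFKB1 did. The noncanonical precursor NFKB2 (ENSG00000077150, chr10:102394110-102402529) was at 120, 165 and 217 CPM in OE33 and 15.2, 26.4 and 44.1 CPM in SK-GT-4. Its partner RELB (ENSG00000104856, chr19:45001430-45038198) was at 46.2, 62.5 and 103 CPM in OE33 and 7.96, 14.8 and 34.2 CPM in SK-GT-4. Every OE33 library was above every SK-GT-4 library for both. The share of all genes that separated the lines in this way was not counted, here or for the members below.

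Of the upstream members, MAP3K14 (ENSG00000006062, chr17:45263119-45317145) was low in both lines, at 10.02, 18.4 and 32.4 CPM in OE33 and 3.80, 10.4 and 17.3 CPM in SK-GT-4. TRAF2 (ENSG00000127191, chr9:136881912-136926607), an adaptor that recruits the BIRC ligases, was at 33.6, 43.4 and 48.2 CPM in OE33 and 20.8, 25.6 and 31.9 CPM in SK-GT-4. TRAF3 (ENSG00000131323, chr14:102777476-102911500), the adaptor that holds NIK for destruction, was at 43.7, 55.6 and 66.3 CPM in OE33 and 21.1, 35.0 and 47.3 CPM in SK-GT-4. TRAF2 separated the lines by a small gap, and MAP3K14 and TRAF3 overlapped. BIRC3 (ENSG00000023445, chr11:102317450-102339403), which encodes the ubiquitin ligase cIAP2, spanned 25.7, 57.9 and 109 CPM in OE33 and 1.32, 9.64 and 61.2 CPM in SK-GT-4, the widest relative range of the 10 members in SK-GT-4.

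Both feedback inhibitors are direct products of the pathway. NFKBIA (ENSG00000100906, chr14:35401511-35404749), the inhibitor IkB alpha, was at 60.2, 87.5 and 128 CPM in OE33 and 53.8, 88.0 and 302 CPM in SK-GT-4, so that its medians were close. TNFAIP3 (ENSG00000118503, chr6:137867188-137883312), which encodes the ubiquitin-editing enzyme A20, was at 85.5, 158 and 200 CPM in OE33 and 2.42, 11.03 and 32.1 CPM in SK-GT-4, with no overlap. Per kilobase of gene length, the median order in OE33 was RELA (45.5 CPM per kb), NFKBIA (36.9), NFKB2 (36.9), TNFAIP3 (31.3), RELB (20.6), TRAF2 (11.8), NFKB1 (11.3), BIRC3 (7.70), TRAF3 (6.73) and MAP3K14 (3.18), in CPM per kb throughout. Neighbours in that order overlapped in their ranges over libraries, except that RELB (15.2 to 34.1 CPM per kb) lay wholly above TRAF2 (9.17 to 13.2). In SK-GT-4 the same measure put NFKBIA (37.1 CPM per kb) first, then RELA (15.3), TRAF2 (6.99), NFKB1 (6.70), NFKB2 (5.90), RELB (4.89), TRAF3 (4.24), TNFAIP3 (2.18), MAP3K14 (1.80) and BIRC3 (1.28). NFKBIA alone lay wholly above its neighbour there, at 22.7 or more against 17.3 or less for RELA.

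**Figure D1:**
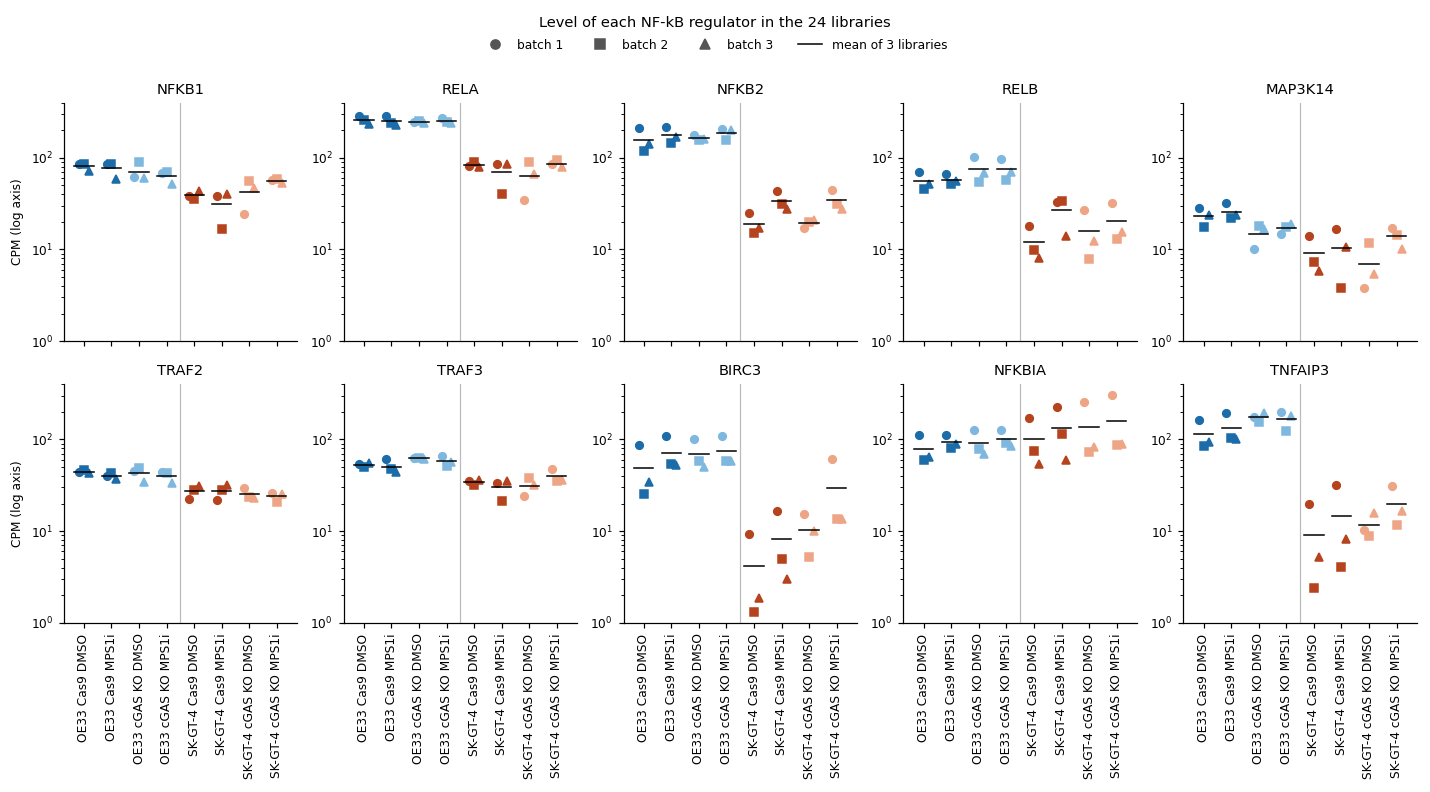
Level of each member in CPM (log axis) in the 8 groups of 3 libraries, with the batch given by the marker shape, the clone by colour and the group mean by a bar. NFKB2, RELA, RELB, TNFAIP3 and TRAF2 separate the OE33 libraries (left) from the SK-GT-4 libraries (right), NFKBIA does not, and batch 1 is the highest point of every group for NFKBIA and BIRC3. The share of all genes that separate the lines was not counted.

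The first comparison asks how the lines differed without treatment. In the Cas9 clones in DMSO, 7 of the 10 members were lower in SK-GT-4 at an adjusted p of 0.01 or less and none was higher, against 11.8% of the 25181 genes tested that were lower. Those were 2983 genes. The share of genes called higher was not counted apart, but the total called in either direction is given with the dependence on processing. Of all genes, 55.7% had a log2 difference above 0. TNFAIP3 and BIRC3 differed most. TNFAIP3 was at 163, 85.5 and 94.97 CPM in batches 1, 2 and 3 of OE33 and at 19.6, 2.42 and 5.20 CPM in SK-GT-4, which was 16.5-fold lower (log2 difference -4.05 ± 0.41, SE, edgeR adjusted p = 9.25e-08). BIRC3 was at 86.2, 25.7 and 34.6 CPM in OE33 and at 9.35, 1.32 and 1.86 CPM in SK-GT-4, which was 14.5-fold lower (log2 -3.86 ± 0.32, edgeR adjusted p = 4.13e-09). Each SK-GT-4 library was below each OE33 library for both genes, and within each line batch 1 was the highest.

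The noncanonical subunits were lower in SK-GT-4 too. NFKB2 went from 209, 120 and 143 CPM in OE33 to 25.3, 15.2 and 17.1 CPM in SK-GT-4, 8.18-fold lower (log2 -3.03 ± 0.21, edgeR adjusted p = 3.01e-10). RELB went from 69.2, 46.2 and 52.2 CPM to 18.2, 9.86 and 8.10 CPM, 4.87-fold lower (log2 -2.28 ± 0.27, edgeR adjusted p = 8.69e-07). The canonical subunits were lower too, RELA 3.07-fold (log2 -1.62 ± 0.27, edgeR adjusted p = 6.70e-05) and NFKB1 2.10-fold (log2 -1.07 ± 0.27, edgeR adjusted p = 0.00371). TRAF2 was 1.66-fold lower (log2 -0.73 ± 0.19, edgeR adjusted p = 0.00437). The median of all genes lay at 0.17 on the log2 scale in the direction of SK-GT-4, so that relative to it each of these differences is slightly larger.

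Of the remaining members, MAP3K14 had a log2 difference of -1.43 ± 0.42 (edgeR adjusted p = 0.0109) and TRAF3 of -0.64 ± 0.20 (edgeR adjusted p = 0.0186). DESeq2 called both, at adjusted p of 0.00551 and 0.00352, as did edgeR without both SK-GT-4 libraries that stand apart, at adjusted p of 1.35e-07 and 0.000132. TRAF2 did not hold without the batch term (edgeR adjusted p = 0.0111). NFKBIA, at 113, 60.2 and 65.2 CPM in OE33 and 174, 75.2 and 53.8 CPM in SK-GT-4, differed by 0.22 ± 0.20, near the median of all genes (edgeR adjusted p = 0.438). Without batch 3, the calls of RELA, NFKB1 and TRAF2 were lost (4 of 10 members called), with log2 differences of -1.66, -1.25 and -0.85.

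The cGAS KO clones, which share no library with the Cas9 clones, gave 7 members lower in SK-GT-4 and none higher, against 11.8% of the 25181 genes lower. Here too the share called higher was not counted, and 55.6% of all genes had a log2 difference above 0. NFKB2, RELB, TNFAIP3, BIRC3, RELA and TRAF2 had log2 differences of -3.07, -2.32, -3.77, -2.77, -1.97 and -0.72, and TRAF3 passed as well, at -0.96 ± 0.21 (edgeR adjusted p = 0.000909). NFKB1 had -0.72 ± 0.27 (edgeR adjusted p = 0.0444) and MAP3K14 -1.03 ± 0.43 (edgeR adjusted p = 0.0679). NFKBIA was again close to the median of all genes (0.19), at 0.41 ± 0.20. Without replicate 1 of SK-GT-4 cGAS KO in DMSO these 7 passed again, while the log2 differences of NFKB1 and MAP3K14 were -0.38 and -0.51. Without replicate 2 of OE33 cGAS KO in DMSO, TRAF2 did not pass (-0.67, edgeR adjusted p = 0.0266), and the other 6 did.

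**Figure D2:**
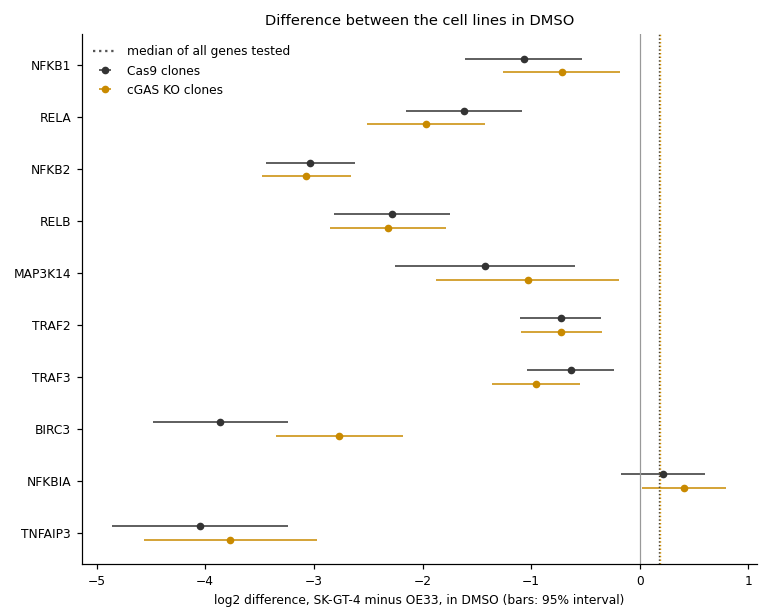
Log2 difference between SK-GT-4 and OE33 in DMSO for each member, in the Cas9 clones (black) and the cGAS KO clones (yellow), with 95% intervals from the SE and the median of all genes as dotted lines. TNFAIP3, BIRC3, NFKB2 and RELB lie farthest to the left, between -2.28 and -4.05, and NFKBIA lies beside the dotted lines.

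Other pathway genes, from lists given in the processing section, moved with these members in part. Beside the counts that follow, 11.8% of all genes tested were lower in SK-GT-4 Cas9, and the share that were higher was not counted. Of 6 other Rel and IkB genes, 3 were lower in SK-GT-4 Cas9 and none higher: NFKBIE, a further IkB inhibitor (log2 -2.37), and the nuclear IkB genes NFKBIZ (-2.96) and NFKBID (-1.58), the log2 differences being SK-GT-4 minus OE33. Of 15 genes of the IKK complex and its adaptors, 5 were lower and 1 higher, among them TAB3 (log2 -1.37), BIRC2 (-0.95), the close relative of BIRC3, and RIPK1 (-1.11), while MAP3K7, the kinase TAK1, was higher (1.02). Of 9 ubiquitin regulators 6 were lower, led by TNIP1, a binding partner of A20 (log2 -2.93), OTULIN (-1.41), RBCK1 (-1.03) and CYLD (-0.92). Of 15 NF-kB target genes 7 were lower and none higher, with IER3 (log2 -3.92), IRF1 (-1.97), ICAM1 (-3.20) and CXCL2 (-2.58) having the smallest p.

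The receptors were split. Of 10 receptor genes, 5 were lower and 3 higher in SK-GT-4 Cas9, against 11.8% of all genes that were lower and a share higher that was not counted. TNFRSF11A, the receptor RANK, was lower (log2 -2.46), as was LTBR, the lymphotoxin beta receptor that feeds the noncanonical route (-1.42). CD40 was listed at 0 to 0.111 CPM in OE33 and at 11.6 to 21.7 CPM in SK-GT-4, and TLR4 was higher in SK-GT-4 (log2 5.18). Among 10 ligand genes none passed in the Cas9 clones (edgeR, 8 tested), and 2 had an unadjusted p under 0.05, in opposite directions. TNFSF11 was at 0 in all 24 libraries and LTA, CD40LG and TNFSF14 did not exceed 0.174 CPM in any. Beside these differences, all 7 epithelial markers were lower in SK-GT-4 Cas9 and 4 of 6 fibroblast and endothelial markers higher (PECAM1, CDH5, COL1A1 and PDGFRB), and their part in the line difference of the members was not tested.

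The second comparison asks whether MPS1 inhibition changed the members within a clone. No member passed in any clone. In OE33 Cas9, edgeR called 0 of 10 members (0.0049% of 20426 genes were called), DESeq2 called 0, and 2 members were higher in MPS1i at an unadjusted p under 0.05, against 3.52% of all genes. These were BIRC3 and NFKBIA. BIRC3 was at 86.2, 25.7 and 34.6 CPM in DMSO and 109, 53.5 and 52.7 CPM in MPS1i in batches 1 to 3, a log2 difference of 0.62 ± 0.15 (edgeR adjusted p = 0.343). MPS1i was the higher library in each batch, but batch 1 in DMSO was above batches 2 and 3 in MPS1i, so that the groups overlapped. With a batch term for each genotype BIRC3 passed, at 0.64 (edgeR adjusted p = 0.00128). NFKBIA was at 113, 60.2 and 65.2 CPM in DMSO and 112, 80.7 and 89.6 CPM in MPS1i, a log2 difference of 0.27 ± 0.12 (edgeR adjusted p = 0.703).

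In OE33 cGAS KO, edgeR and DESeq2 called 0 members (0% of genes called by edgeR), and 0 were higher at an unadjusted p under 0.05, against 3.82% of genes. BIRC3 was at 100, 58.0 and 50.5 CPM in DMSO and 109, 58.8 and 57.8 CPM in MPS1i (log2 difference 0.12 ± 0.15), and NFKB2 at 179, 155 and 162 CPM and 206, 157 and 201 CPM (0.18 ± 0.13). MAP3K14 had the largest difference of the 10, at 0.21 ± 0.23. All 10 differences in this clone were between -0.16 and 0.21 on the log2 scale. Without replicate 2 in DMSO, which held 15.4 CPM of CGAS, the differences were 0.24 for BIRC3, 0.28 for NFKB2 and 0.47 for MAP3K14 (edgeR adjusted p = 0.936 for each), and RELB went from 0.03 to -0.06 (edgeR adjusted p = 0.979).

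In SK-GT-4 Cas9, edgeR and DESeq2 again called 0 members (0% of the 22782 genes called by edgeR), and 3 were higher in MPS1i at an unadjusted p under 0.05, against 2.01% of genes. NFKB2 was at 25.3, 15.2 and 17.1 CPM in DMSO and 43.1, 31.2 and 27.6 CPM in MPS1i, and every MPS1i library was above every DMSO library (log2 difference 0.83 ± 0.24, edgeR adjusted p = 0.981). How many of all genes separated the groups in this way was not counted. BIRC3 went from 9.35, 1.32 and 1.86 CPM to 16.5, 5.02 and 3.03 CPM, higher in each batch with overlapping groups (1.14 ± 0.36, edgeR adjusted p = 0.981). RELB went from 18.2, 9.86 and 8.10 CPM to 32.8, 34.2 and 14.2 CPM (1.23 ± 0.34, edgeR adjusted p = 0.981). The highest RELB value came from replicate 2, the library that stands apart. Without it the log2 difference of RELB was 0.65, that of NFKB2 0.80 and that of BIRC3 0.85.

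That library also held the lowest NFKB1 (16.7 CPM against 35.1 in its DMSO partner), RELA (40.4 against 90.8), MAP3K14 (3.81 against 7.35) and TRAF3 (21.1 against 31.8) of its clone. Leaving it out moved the fitted differences of NFKB1 from -0.31 to 0.05, of RELA from -0.24 to 0.14 and of MAP3K14 from 0.23 to 0.71. None of the 3 passed either way. The ribosomal protein share of this library and its deficit of long genes against its group are given above, and their part in these levels was not tested.

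In SK-GT-4 cGAS KO, edgeR and DESeq2 called 0 members (0% of genes by edgeR), and 2 were higher in MPS1i at an unadjusted p under 0.05, against 0.733% of genes. NFKB2 was at 17.0, 19.9 and 20.9 CPM in DMSO and 44.1, 31.4 and 27.9 CPM in MPS1i, without overlap (log2 difference 0.77 ± 0.24, edgeR adjusted p = 0.966). The share of all genes without overlap was not counted here either. BIRC3 was at 15.5, 5.18 and 9.92 CPM in DMSO and 61.2, 13.6 and 13.6 CPM in MPS1i (1.18 ± 0.36, edgeR adjusted p = 0.966). The 61.2 CPM of batch 1 is the highest BIRC3 level of all SK-GT-4 libraries. Its DMSO partner is the other library that stands apart, and without that library the differences were 0.53 for NFKB2, 0.84 for BIRC3 and -0.02 for TNFAIP3 (0.49 with it). With both such libraries left out NFKB2 was at 0.76 in the Cas9 clone and 0.50 in the cGAS KO clone, and BIRC3 at 0.80 in both.

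Averaged over the 4 clones, edgeR called 0 members (0.0119% of 25181 genes were called) and DESeq2 called 2 members (96 genes in all, against 3 by edgeR). At an unadjusted p under 0.05, 4 members were higher in MPS1i, against 4.02% of genes. BIRC3 had a mean log2 difference of 0.77 ± 0.14, or 1.71-fold (edgeR adjusted p = 0.0515), and NFKB2 of 0.49 ± 0.10, or 1.41-fold (edgeR adjusted p = 0.0916). Under DESeq2 the adjusted p was 0.000143 and 1.00e-05, and with a batch term for each genotype edgeR gave 0.00173 and 0.00669. Without both SK-GT-4 libraries that stand apart the means were 0.60 (edgeR adjusted p = 0.000301) and 0.41 (edgeR adjusted p = 0.00195). RELB had 0.43 ± 0.13 (edgeR adjusted p = 0.402) and NFKBIA 0.26 ± 0.10 (edgeR adjusted p = 0.626).

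Within batches, MPS1i was above DMSO in 12 of 12 pairs for NFKB2 and BIRC3, a pattern that 0.353% of the 25181 genes showed. The smallest pair differences were 0.01 for NFKB2 and 0.02 for BIRC3, both in OE33 cGAS KO batch 2, whose DMSO library held 15.4 CPM of CGAS, and the largest 1.37 and 1.98, both in SK-GT-4 cGAS KO batch 1, whose DMSO library stands apart. RELB, NFKBIA and TNFAIP3 were higher in 10 of 12 pairs and MAP3K14 in 9. RELA was higher in 6 pairs, NFKB1 in 5, TRAF3 in 4 and TRAF2 in 3. The mean differences of TNFAIP3 (0.33 ± 0.18) and MAP3K14 (0.38 ± 0.21) had an unadjusted edgeR p of 0.0850 and 0.0852, and those of RELA (0.05 ± 0.13), NFKB1 (-0.04 ± 0.14), TRAF3 (-0.02 ± 0.10) and TRAF2 (-0.08 ± 0.09) were within their SE.

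**Figure D3:**
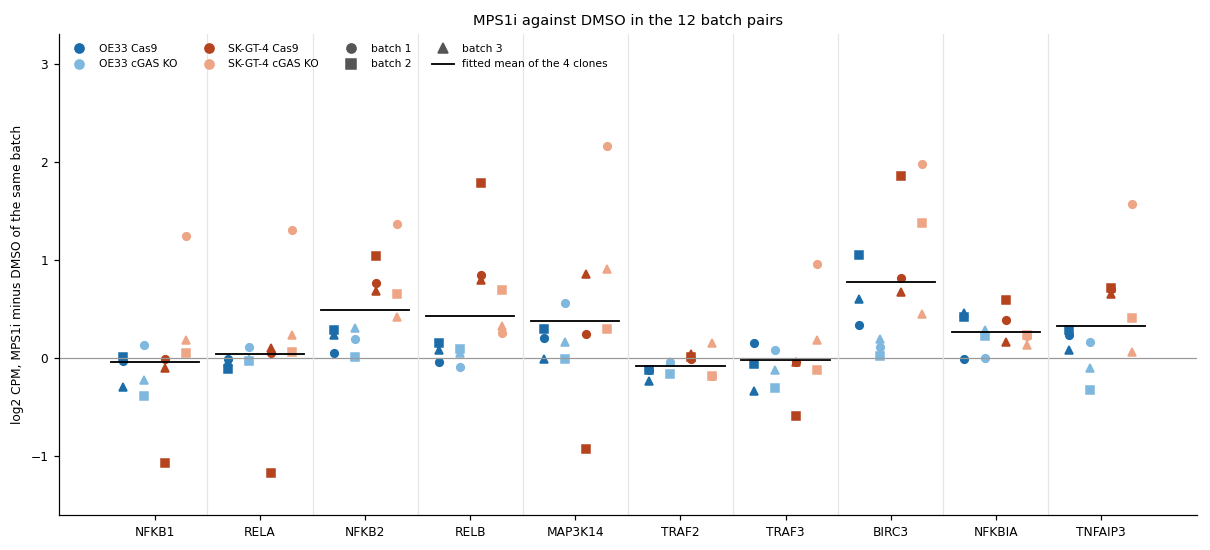
Log2 CPM of the MPS1i library minus the DMSO library of the same batch, for each member in the 12 batch pairs, with clone by colour, batch by marker shape and the fitted mean of the 4 clones as a bar. All 12 points of NFKB2 and BIRC3 lie above 0, and the lowest and highest points of NFKB1, RELA and TRAF3 come from the pairs with a library that stands apart.

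For the other lists the mean MPS1i difference gave no call in edgeR. At an unadjusted p under 0.05, where 4.02% of all genes were higher, 7 of 15 NF-kB target genes were higher and none lower, as were 3 of 10 ligands, 2 of 10 receptors, 2 of 9 ubiquitin regulators, 1 of 6 other Rel and IkB genes and 1 of 15 IKK complex and adaptor genes. The median log2 difference was 0.50 over the target genes, 0.73 over the 8 ligands tested and 0.00 over the IKK complex and adaptors, against 0.03 over all genes. By the smallest p, the genes were IRF1 (0.41 ± 0.09, edgeR adjusted p = 0.141), IL1A (0.93 ± 0.22, edgeR adjusted p = 0.196), TRAF1 (0.80 ± 0.21, edgeR adjusted p = 0.264) and CYLD (0.36 ± 0.09, edgeR adjusted p = 0.282), which were named after their values were seen. Epithelial, leukocyte and fibroblast or endothelial markers had none at that level.

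The third comparison asks whether the MPS1i difference depended on cGAS. In OE33 the difference of the MPS1i effects, Cas9 minus cGAS KO, was called for 0 members by edgeR and DESeq2 (0% of genes by edgeR), and for 1 at an unadjusted p under 0.05, against 1.88% of genes. This was BIRC3, whose MPS1i effect was larger in Cas9 by 0.50 ± 0.22 on the log2 scale (edgeR adjusted p = 1), and by 0.39 without the cGAS KO library that held 15.4 CPM of CGAS (edgeR adjusted p = 1). NFKB2 differed by -0.02 ± 0.18 and RELB by 0.02 ± 0.16, with 95% intervals of -0.37 to 0.34 and -0.29 to 0.34, and without that library they differed by -0.11 and 0.11. In SK-GT-4 both tools called 0 (0% of genes by edgeR), with 0 members at an unadjusted p under 0.05, against 2.41% of genes. BIRC3 differed there by -0.04 ± 0.53 and NFKB2 by 0.06 ± 0.33, and RELB by 0.87 ± 0.48 (edgeR adjusted p = 0.823). Without both libraries that stand apart the differences were 0.0041 for BIRC3, 0.26 for NFKB2 and 0.19 for RELB, while TNFAIP3 went from 0.21 to 0.85, MAP3K14 from -0.66 to 0.18, NFKB1 from -0.71 to -0.12 and RELA from -0.68 to -0.05 (edgeR adjusted p = 1 for each). With all libraries the 95% intervals were -1.07 to 0.99 for BIRC3 and -0.59 to 0.71 for NFKB2, so a dependence on cGAS of either sign was not resolved at this replication.

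Between the lines, the MPS1i effect in the Cas9 clones was called different for 0 members by edgeR and DESeq2 (0% of genes by edgeR), and for 2 at an unadjusted p under 0.05, against 1.73% of genes. RELB differed by 1.16 ± 0.37 (edgeR adjusted p = 1) and NFKB2 by 0.64 ± 0.27 (edgeR adjusted p = 1), both larger in SK-GT-4. Without SK-GT-4 Cas9 MPS1i replicate 2 the values were 0.60 and 0.63. The MPS1i difference of RELB in OE33 Cas9 was 0.05 ± 0.11.

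The fourth comparison sets the cGAS KO clone against the Cas9 clone. In OE33 in DMSO, edgeR called 0 members (1.47% of genes were called) and DESeq2 called 2 members (742 genes in all, against 300 by edgeR). At an unadjusted p under 0.05 there were 4 members, against 17.5% of genes. TNFAIP3 was at 163, 85.5 and 94.97 CPM in Cas9 and 178, 153 and 194 CPM in cGAS KO (log2 difference 0.66 ± 0.17, edgeR adjusted p = 0.0331, DESeq2 adjusted p = 0.00832). BIRC3 was at 86.2, 25.7 and 34.6 CPM in Cas9 and 100, 58.0 and 50.5 CPM in cGAS KO (0.60 ± 0.15, edgeR adjusted p = 0.0336, DESeq2 adjusted p = 0.00742). Both were higher in cGAS KO in each batch, with groups that overlapped through batch 1 of Cas9. Without the cGAS KO library that held 15.4 CPM of CGAS, the differences were 0.57 and 0.48. Without the batch term the adjusted p was 0.594 for TNFAIP3 and 0.825 for BIRC3.

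RELB was at 69.2, 46.2 and 52.2 CPM in Cas9 and 103, 54.0 and 68.1 CPM in cGAS KO, higher in each batch (0.38 ± 0.11, edgeR adjusted p = 0.0692). MAP3K14 went the other way, from 28.1, 17.8 and 23.7 CPM to 10.02, 17.9 and 16.8 CPM (-0.65 ± 0.23, edgeR adjusted p = 0.125), with almost no difference in batch 2, whose cGAS KO library is the same CGAS-positive library. Without that library MAP3K14 was at -0.91 (edgeR adjusted p = 0.0132). In MPS1i that library is in neither group but shares the fit, and without it edgeR called 1349 genes in place of 580, with 0 members either way. With all libraries, edgeR and DESeq2 called 0 members (2.84% of genes by edgeR) and 3 had an unadjusted p under 0.05, against 21.3% of genes. MAP3K14 was at 32.4, 21.9 and 23.6 CPM in Cas9 and 14.8, 17.8 and 18.9 CPM in cGAS KO, without overlap (-0.59 ± 0.23, edgeR adjusted p = 0.128). The share of all genes that did not overlap between these groups was not counted. RELB had 0.36 ± 0.11 (edgeR adjusted p = 0.0658) and TNFAIP3 0.37 ± 0.17 (edgeR adjusted p = 0.208), whereas BIRC3 had 0.10 ± 0.15.

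In SK-GT-4 in DMSO, edgeR called 0 members (1.76% of genes were called) and DESeq2 called 1 member (1486 genes in all, against 400 by edgeR). At an unadjusted p under 0.05 there was 1 member, against 17.5% of genes. This was BIRC3, at 9.35, 1.32 and 1.86 CPM in Cas9 and 15.5, 5.18 and 9.92 CPM in cGAS KO, higher in each batch and 3.35-fold in the fit (log2 1.74 ± 0.37, edgeR adjusted p = 0.0201, DESeq2 adjusted p = 0.000247). In MPS1i, edgeR called 0 members (1.41% of genes) and DESeq2 called 1 member (1424 genes in all, against 321 by edgeR). At an unadjusted p under 0.05 there were 2 members, against 18.4% of genes. BIRC3 was at 16.5, 5.02 and 3.03 CPM in Cas9 and 61.2, 13.6 and 13.6 CPM in cGAS KO (1.78 ± 0.36, edgeR adjusted p = 0.0186, DESeq2 adjusted p = 0.000214). Without 1 of the libraries that stand apart BIRC3 passed in DMSO (edgeR adjusted p = 0.00360 without the Cas9 and 0.00368 without the cGAS KO library), and without both it passed in DMSO (2.14, edgeR adjusted p = 7.13e-13) and in MPS1i (2.14, edgeR adjusted p = 2.81e-13). Without the batch term the adjusted p was 0.472 and 0.280.

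NFKB1 was the other member in MPS1i, at 37.9, 16.7 and 40.4 CPM in Cas9 and 57.7, 58.3 and 53.1 CPM in cGAS KO (0.85 ± 0.36, edgeR adjusted p = 0.230). The lowest value is the library that stands apart, and without it the difference was 0.48 (edgeR adjusted p = 0.469). TNFAIP3 was at 19.6, 2.42 and 5.20 CPM in Cas9 and 10.3, 8.87 and 15.9 CPM in cGAS KO in DMSO, lower in batch 1 and higher in batches 2 and 3 (0.98 ± 0.49, edgeR adjusted p = 0.340). Without both libraries that stand apart, which removes that batch 1 cGAS KO value, it was 1.495 (edgeR adjusted p = 6.30e-08). Without both, RELB in MPS1i went from -0.51 to 0.01, MAP3K14 from 0.43 to -0.0094 and RELA from 0.27 to -0.08, and in DMSO MAP3K14 went from -0.23 to 0.17, with no call either way. NFKB2 did not pass in DMSO (0.07 ± 0.24) or in MPS1i (0.01 ± 0.23), with 95% intervals of -0.39 to 0.54 and -0.44 to 0.47.

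**Figure D4:**
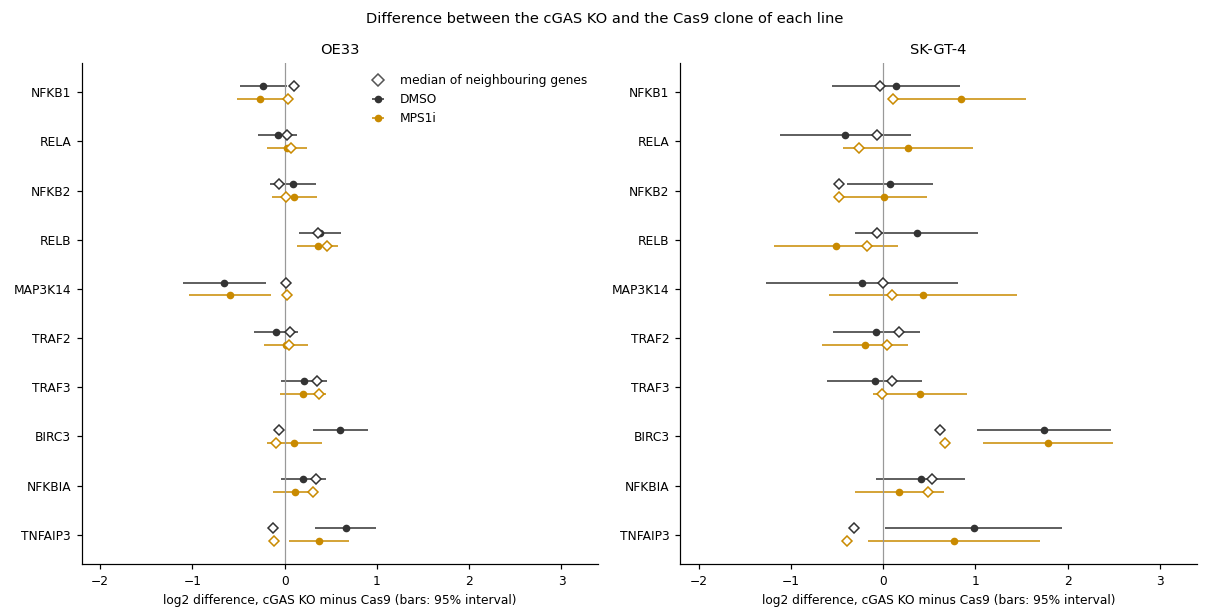
Log2 difference between the cGAS KO and the Cas9 clone of OE33 (left) and SK-GT-4 (right) for each member in DMSO (black) and MPS1i (yellow), with 95% intervals from the SE. Open diamonds give the median difference of the protein-coding genes within 5 Mb. BIRC3 in SK-GT-4 lies at 1.74 and 1.78 with its neighbours at 0.62 and 0.67, and RELB in OE33 lies beside its neighbours.

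Because clone and genotype cannot be told apart, the protein-coding genes starting within 5 Mb of each member were set beside it. In OE33 the 254 neighbours of RELB had a median difference between cGAS KO and Cas9 of 0.36 in DMSO and 0.46 in MPS1i, close to the 0.38 and 0.36 of RELB itself, and 44 of them were called higher in MPS1i with none lower. The 64 neighbours of TRAF3 stood at 0.35 and 0.37, and TRAF3 at 0.21 and 0.20. For TNFAIP3 and BIRC3 the OE33 neighbours had medians of -0.13 and -0.06 in DMSO, against 0.66 and 0.60 for the members. In SK-GT-4 the 26 neighbours of BIRC3 stood at 0.62 in DMSO and 0.67 in MPS1i, below its 1.74 and 1.78, and the 34 neighbours of TNFAIP3 at -0.32 and -0.39. The part of copy number in these values was not tested.

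Of the other pathway genes, TNFRSF1B, a receptor of TNF, was higher in OE33 cGAS KO in DMSO (log2 1.10 ± 0.15, edgeR adjusted p = 0.000427) and in MPS1i (1.28 ± 0.15, edgeR adjusted p = 0.000107), and TNFRSF11A in MPS1i (1.22 ± 0.19, edgeR adjusted p = 0.000992). None of the other Rel and IkB, IKK and adaptor, ubiquitin regulator or ligand genes was called by edgeR between the clones of either line, and the highest count at an unadjusted p under 0.05 was 7 of the 15 IKK complex and adaptor genes in SK-GT-4 in DMSO, 4 higher and 3 lower, against 17.5% of all genes. Of the target genes, IL6 was called, lower in SK-GT-4 cGAS KO in MPS1i (log2 -5.59 ± 0.71, edgeR adjusted p = 0.00164), at levels of 0 to 8.53 CPM in this line. The clones of SK-GT-4 differed in epithelial markers as well. In DMSO 3 of 7 were called higher in cGAS KO (CLDN4 by 4.55, CDH1 by 3.53 and EPCAM by 2.72 on the log2 scale) and in MPS1i 2 of 7, with 7 and 5 of 7 higher at an unadjusted p under 0.05. Of all genes, 1.76% and 1.41% were called in either direction, and 17.5% and 18.4% had an unadjusted p under 0.05. In OE33 no epithelial marker was called by edgeR, with 1 and 2 of 7 higher at an unadjusted p under 0.05. The share of all genes at that level in either direction was 17.5% and 21.3%. The leukocyte marker CD14 was called higher in OE33 cGAS KO in DMSO, at 3.14 to 7.15 CPM against 1.34 to 3.08 CPM (log2 1.23 ± 0.23, edgeR adjusted p = 0.00564), and had 0.94 ± 0.23 in MPS1i (edgeR adjusted p = 0.0171). The part of these markers in the differences of BIRC3 and TNFAIP3 was not tested. In bulk RNA fewer expressing cells and less RNA per cell cannot be told apart.

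For BIRC3, NFKBIA, TNFAIP3 and RELB the difference between batch 1 and the other batches was larger in both lines than the mean MPS1i difference. Batch 1 was the highest of the 3 libraries in 8 of 8 groups for NFKBIA and BIRC3, a pattern shown by 0.298% of the 25181 genes, in 7 of 8 for NFKB2 and RELB and in 6 of 8 for TNFAIP3. For the other 5 members it was the highest in 1 to 5 groups. The mean of batch 1 minus the mean of the other batches for BIRC3 came to 1.09 (OE33) and 1.957 (SK-GT-4) on the log2 scale, 0.64 and 1.61 for NFKBIA, 0.56 and 1.45 for TNFAIP3, 0.55 and 1.05 for RELB and 0.38 and 0.38 for NFKB2. What the labels call a batch is a replicate number shared by the 8 groups, and no value here tells what differed in batch 1.

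Across the 24 libraries, with each clone centred on its own mean, Pearson's r described how the members moved together, over libraries that share batches and depth. NFKB2, RELB, NFKBIA, TNFAIP3 and BIRC3 had r of 0.53 to 0.87 in their 10 pairs, highest for NFKBIA with BIRC3. NFKB1, RELA, MAP3K14 and TRAF3 had r of 0.64 to 0.90 in their 6 pairs, highest for NFKB1 with RELA. Pairs across these groups reached r of 0.62, for MAP3K14 with TNFAIP3, above the lowest r within the first group. The grouping describes these same values and was not tested. RELB had r of -0.47 with NFKB1 and -0.43 with RELA, which were -0.09 and 0.11 without both libraries that stand apart. TRAF2 had r between -0.50 and 0.01 with every other member, and between -0.42 and 0.57 without both. Without both libraries that stand apart, an alternative added after the data were seen, the first 5 genes had r of 0.78 to 0.93 over 22 libraries. The other 4 had r of 0.16 to 0.51 there, so that much of their likeness rested on those 2 libraries. Among them, MAP3K14 had r of 0.52 to 0.73 with the first 5 genes there, highest for NFKB2. With NFKB1, RELA and TRAF3 it had r of 0.16 to 0.47.

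**Figure D5:**
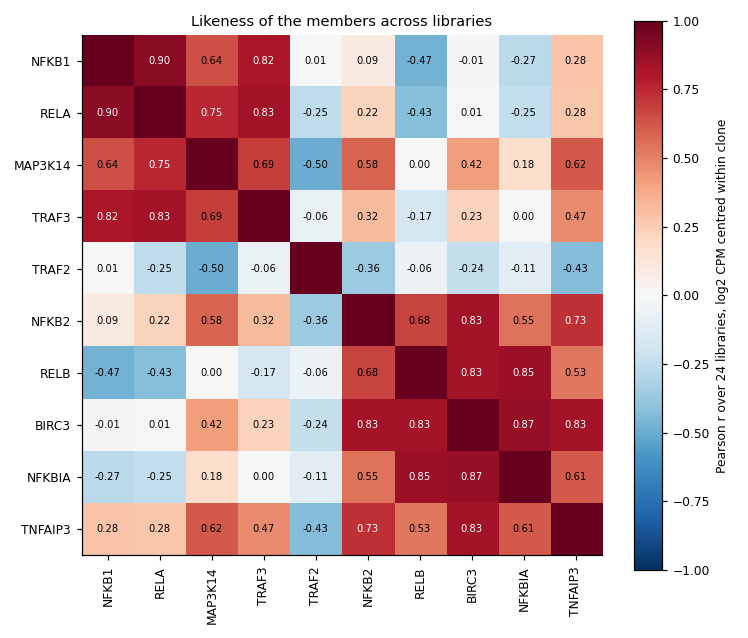
Pearson's r between members over the 24 libraries (log2 CPM, each of the 4 clones centred on its mean), in colour and digits. The block of NFKB2, RELB, BIRC3, NFKBIA and TNFAIP3 has r of 0.53 to 0.87 and the block of NFKB1, RELA, MAP3K14 and TRAF3 has r of 0.64 to 0.90, which was 0.16 to 0.51 without both libraries that stand apart. Without both, MAP3K14 had r of 0.52 to 0.73 with the members of the first block.

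The genes whose pattern was most like each member, by the largest r among 11718 genes with a mean of at least 1 CPM in both lines, differed between these groups as well. RELB was most like IL32, an inflammatory cytokine gene (r = 0.95), NFKBIE (0.94) and PPCDC (0.885), and NFKBIA was most like STK16 (0.91), NFKBIE (0.91) and TRIM16 (0.90). BIRC3 was most like HDAC9 (r = 0.93), MAFF (0.91) and IL1A (0.91), and NFKB2 like IQCB1 (0.85), BIRC3 (0.83) and IL1A (0.82), the gene of interleukin-1 alpha. TNFAIP3 was most like PDP1 (r = 0.89), PLK3 (0.87) and BACH1 (0.86). For these 5 members the r without both libraries that stand apart was between 0.85 and 0.94.

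The genes most like the other members did not include a pathway gene of the lists, and neither did those most like TNFAIP3. RELA was most like DYNC1LI2 (r = 0.98, 0.84 without both libraries) and NFKB1 most like YWHAG (r = 0.96, 0.88 without both). TRAF3 was most like SMARCD1 (r = 0.88, 0.67 without both), MAP3K14 most like NEK9 (r = 0.87, 0.75 without both) and TRAF2 most like MRM1 (r = 0.87, 0.91 without both). No p is given for these values, because the libraries share batches.

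The counts of a few members can hold reads of overlapping genes, because the strand setting of the counting is not given in the sources used here. TNFAIP3 overlaps the antisense gene AL357060.1 (4 to 71 counts per library) and MAP3K14 overlaps MAP3K14-AS1 (10 to 109 counts), against at least 57 counts of TNFAIP3 and 66 of MAP3K14 in the lowest SK-GT-4 libraries. RELA overlaps AP001362.2 (31 to 81 counts) at the start of RELA only, and TRAF2 and TRAF3 hold the small RNA genes MIR4479 and RNU6-1316P, with at most 5 counts.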

How the data were processed

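Poly(A) RNA from 24 libraries was sequenced by the authors as 150 bp read pairs, aligned to GRCh38 with HISAT2 2.0.5 and counted per gene with featureCounts 1.5.0. The deposited values are whole-number counts per gene. The annotation release, strand setting and treatment of multimapping reads are not given in the sources used here. Groups came from the labels, and the members and gene lists were chosen with earlier results of these data known. Lists hold other Rel and IkB genes, IKK complex and adaptors, ubiquitin regulators, receptors, ligands, NF-kB target genes and markers of epithelial, leukocyte, and fibroblast and endothelial cells. The 10 members are all named. Of each list, up to 4 genes that passed are named per comparison, those with the smallest p, as are genes at or under 3 counts. The 3 genes most like each of NFKB2, RELB, NFKBIA, TNFAIP3 and BIRC3 are named, and for each other member the gene most like it.

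Genes with a total of at least 5 counts and nonzero counts in at least 4 libraries were tested with edgeR 4.0.16 in R 4.3.3 (TMM, quasi-likelihood, two-sided, Benjamini-Hochberg adjustment over all genes tested, called at 0.01): 20426 in OE33, 22782 in SK-GT-4 and 25181 in the fits of all 24 libraries. Each fit had a batch term per cell line, following the batch numbers in the labels. Within clones the MPS1i and DMSO libraries of the same batch deviated together with r over 0.1 in 11 of 12 pairs (0.0556 to 0.835). The SE is the log2 difference divided by the square root of F, and 95% intervals are normal approximations. Between replicates the biological variation coefficient reached 15.0% (OE33) and 34.0% (SK-GT-4), the latter 15.6% without both libraries that stand apart. No libraries were duplicates (chi-square per gene at least 8.10 over 276 pairs). On simulated counts with 200 genes changed 4-fold, the OE33 Cas9 comparison recovered 200 with 14 other calls among 19871 genes, the SK-GT-4 Cas9 comparison 159 with 2 among 22104 and the line comparison 193 with 4 among 24545. The changed genes were drawn from those with higher counts, and the simulated counts held no differences between batches or clones. Smaller changes were not simulated, so these values do not give the power for them. Log2 CPM used a prior count of 2. Alternatives were DESeq2 1.42.0, DESeq2 size factors, other filters, other batch terms, an adjusted p of 0.05 and omitted libraries. Promoter windows came from RefSeq (GRCh38.p14), and protein sequences were not used here.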

Additional observations from a re-analysis of the deposited data

Results flagged for a closer look

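Differences between clones in the response to MPS1i had an unadjusted p under 0.05 for BIRC3 in OE33 (Cas9 minus cGAS KO 0.50 on the log2 scale, edgeR adjusted p = 1). In the Cas9 clones, the response in SK-GT-4 minus that in OE33 was 0.64 for NFKB2 (edgeR adjusted p = 1) and 1.16 for RELB (edgeR adjusted p = 1), the latter 0.60 without SK-GT-4 Cas9 MPS1i replicate 2. NFKB1 in SK-GT-4 was lower in MPS1i in every Cas9 batch (-0.01, -1.07 and -0.10) and higher in every cGAS KO batch (1.25, 0.05 and 0.19), a mean difference of -0.89. That opposite direction was not itself tested, and the fitted difference of -0.71 had an edgeR adjusted p of 0.823. The pairs at -1.07 and 1.25 each hold 1 of the libraries that stand apart.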

How the results depend on the processing

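At an adjusted p of 0.05 the cGAS KO against Cas9 counts were 926 genes (2 members) in OE33 DMSO, 1631 in OE33 MPS1i, 1115 (1 member) in SK-GT-4 DMSO and 1018 (1 member) in SK-GT-4 MPS1i, and 7 genes for the mean MPS1i effect, against 300, 580, 400, 321 and 3 at 0.01. DESeq2 called 742 (2 members), 1159, 1486 (1 member), 1424 (1 member) and 96 (2 members) in the same order, 18, 7 and 2 for MPS1i in OE33 Cas9, OE33 cGAS KO and SK-GT-4 Cas9, and 3 for the line difference of the MPS1i effects. With filterByExpr OE33 Cas9 MPS1i gave 0 and OE33 DMSO knockout 189. With no filter on low counts the calls were 96 (1 member) and 152 for MPS1i in OE33 Cas9 and cGAS KO, 28 for their difference, 1046 (3 members), 1541 (1 member), 647 (1 member) and 529 (1 member) for the knockout comparisons and 19 (1 member) for the mean effect. Without the replicate block the knockout calls were 15, 17, 191 and 163 and the OE33 Cas9 MPS1i calls 0. With a replicate block per genotype and batch, MPS1i gave 93 (1 member) in OE33 Cas9, 101 in OE33 cGAS KO and 27 (2 members) in the mean. Leaving out 1 replicate or library gave 0 to 2 genes for OE33 Cas9 MPS1i, 11 to 962 (0 to 1 members) and 18 to 1349 for the OE33 knockout, 0 to 1022 (0 to 1 members) and 0 to 780 (0 to 1 members) for the SK-GT-4 knockout, and 0 to 11 for the mean effect. Without replicate 3 the line comparisons gave 2994 (4 members) and 2712 genes, and without replicate 2 of SK-GT-4 Cas9 in MPS1i 7918 (9 members) and 8130, against 6589 (7 members) and 6631. Without both SK-GT-4 libraries that stand apart, the SK-GT-4 counts were 23, 4 and 5 for MPS1i in Cas9, in cGAS KO and their difference, 2964 (2 members) and 2588 (1 member) for the knockout and 70 (2 members) for the mean. The cause of these shifts was not tested. The lowest count of a member was 31 (BIRC3), and the variation coefficient of SK-GT-4 was 34.0%, or 15.6% without both libraries that stand apart. Neighbour medians in windows of 2 and 10 Mb had the same sign as within 5 Mb for RELB in OE33 (0.33 to 0.50) and BIRC3 in SK-GT-4 (0.46 to 0.79).

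Over 1700 member values under these alternatives, 1543 kept direction and side of the threshold, 49 passed it newly, 14 lost it and 94 turned direction, none of the 94 past the threshold with or without the alternative. Of these, 86 came from leaving out libraries. The other 8 were BIRC3 in the SK-GT-4 difference of MPS1i effects (0.012 with DESeq2 size factors, 0.015 with DESeq2 and 0.024 with filterByExpr), NFKB2 in the SK-GT-4 knockout in MPS1i (-0.0063, -0.0061 and -0.0055 in the same order), TNFAIP3 in the SK-GT-4 difference of MPS1i effects without the replicate block (-0.029) and MAP3K14 in the line difference with a replicate block per genotype and batch (-0.082). Without both libraries that stand apart the turned values were 0.0047 for NFKB1, 0.090 for RELA and -0.036 for TRAF2 (MPS1i in SK-GT-4 Cas9), 0.097 for TRAF2 and -0.027 for TNFAIP3 (MPS1i in SK-GT-4 cGAS KO), 0.18 for MAP3K14, -0.13 for TRAF2, -0.064 for NFKBIA and 0.0041 for BIRC3 (the SK-GT-4 difference of MPS1i effects), 0.17 for MAP3K14 and 0.084 for TRAF3 (the SK-GT-4 knockout in DMSO), -0.082 for RELA, 0.012 for RELB and -0.0094 for MAP3K14 (the SK-GT-4 knockout in MPS1i), 0.13 for NFKB1, 0.16 for RELA, 0.059 for TRAF3 and -0.14 for NFKBIA (the line difference of MPS1i effects). Where leaving out 1 replicate or library turned a member, its lowest and highest log2 differences follow. For MPS1i in OE33 Cas9 they were -0.19 to 0.053 for TRAF3. For MPS1i in OE33 cGAS KO they were -0.020 to 0.061 for RELA, -0.059 to 0.076 for RELB and -0.20 to 0.015 for TNFAIP3. For the OE33 difference of MPS1i effects they were -0.11 to 0.16 for NFKB1, -0.12 to 0.099 for NFKB2, -0.31 to 0.061 for MAP3K14 and -0.069 to 0.16 for TRAF3. For the OE33 knockout in DMSO they were -0.028 to 0.28 for NFKB2, -0.11 to 0.011 for RELA and -0.15 to 0.053 for TRAF2. For the OE33 knockout in MPS1i they were -0.0099 to 0.066 for RELA and -0.063 to 0.080 for TRAF2. For MPS1i in SK-GT-4 Cas9 they were -0.49 to 0.053 for NFKB1, -0.45 to 0.14 for RELA, -0.14 to 0.71 for MAP3K14 and -0.070 to 0.045 for TRAF2. For MPS1i in SK-GT-4 cGAS KO they were -0.23 to 0.12 for TRAF2 and -0.021 to 0.75 for TNFAIP3. For the SK-GT-4 difference of MPS1i effects they were -0.11 to 0.35 for NFKB2, -0.10 to 0.22 for TRAF2, -0.037 to 0.31 for NFKBIA, -0.049 to 0.72 for TNFAIP3 and -0.33 to 0.52 for BIRC3. For the SK-GT-4 knockout in DMSO they were -0.21 to 0.48 for NFKB1, -0.086 to 0.36 for NFKB2, -0.94 to 0.40 for MAP3K14, -0.32 to 0.098 for TRAF2 and -0.31 to 0.13 for TRAF3. For the SK-GT-4 knockout in MPS1i they were -0.11 to 0.48 for RELA, -0.80 to 0.053 for RELB, -0.079 to 0.75 for MAP3K14 and -0.0097 to 0.49 for NFKBIA. For the mean MPS1i effect they were -0.21 to 0.097 for NFKB1, -0.10 to 0.20 for RELA and -0.17 to 0.095 for TRAF3. For the line difference of MPS1i effects they were -0.45 to 0.18 for NFKB1, -0.41 to 0.21 for RELA, -0.40 to 0.57 for MAP3K14, -0.38 to 0.093 for TRAF3 and -0.15 to 0.27 for NFKBIA. The cause of these turns was not tested.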
